A study of Mus musculus with 2 samples.

Results

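The 10 small nucleolar RNA (snoRNA) host genes described here were Gas5, Snhg1, Snhg3, Snhg4, Snhg5, Snhg6, Snhg7, Snhg8, Snhg9 and Snhg12. They were chosen by name, with the FPKM values of these libraries already known and with Snhg9 to be set against the others. Their differences are therefore a description and carry no test. The members make up 10 of the 23961 gene symbols in the tables, and all 10 were among the 11121 measured symbols, meaning those with at least 1 FPKM in either library. FPKM is the number of sequenced fragments assigned to a gene, divided by its transcript length and by the number of fragments mapped in that library. It allows levels of different genes to be compared per length.

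RNA was sequenced from hematopoietic stem cells, the source of all blood lineages, which had been sorted from marrow of C57BL/6 mice that had received no treatment. There was 1 library of the genotype Per2def, labelled Per2-deficient, and 1 library of the genotype Per2wt, labelled wild-type. Mice of both genotypes lived under alternating light and dark of equal length before the experiment. The labels give neither the Per2 allele, the ages, the number of animals per library, the sort markers nor the time of day of collection. Per2 is a repressor in the circadian clock. Libraries were made from polyadenylated RNA with a kit that marks strand. Per2 RNA itself stood at 6.16 FPKM in the library labelled Per2def, against 1.96 FPKM in the library labelled Per2wt, which goes against a loss of the transcript. Every direction given here is between the libraries as labelled. Each genotype had 1 library, so nothing was replicated, no standard error, p-value or test is given, and what is compared is a pair of libraries. Differences are on the log2(FPKM + 1) scale, Per2def minus Per2wt, which makes changes of low genes look smaller than they are. Folds given for 1 gene are plain ratios of FPKM, while counts past 1.5-fold or 2-fold use ratios of FPKM + 1, unless stated otherwise.

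A snoRNA host gene is transcribed as a spliced precursor whose introns hold snoRNAs. After splicing, the snoRNA is trimmed out of its intron and joins a protein particle that works in the nucleolus. Box C/D snoRNAs guide ribose methylation of ribosomal and spliceosomal RNA, and box H/ACA snoRNAs guide the conversion of uridine to pseudouridine, while a few members of both classes take part in cutting the ribosomal RNA precursor. Many host genes encode ribosomal or other proteins, but the hosts described here make spliced RNAs that encode no known conserved protein. Several of those spliced RNAs, Gas5 among them, are known to be translated near their start and then destroyed by nonsense-mediated decay. Gas5 RNA is also known in human cells to accumulate on growth arrest. A poly(A)-selected library measures the spliced host RNA and is poorly placed to measure the mature snoRNA, which carries no poly(A) tail.

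Snhg9 was the shortest of the hosts and the member that stood apart, so its RNA and that of its guest are shown. The gene (ENSMUSG00000090101.1) lies on the minus strand of chromosome 17 at 24719531 to 24719965 (GRCm38). It has 2 exons, of 106 and 77 bases, which make 1 annotated transcript of 183 bases after splicing. The intron holds Snora78, a box H/ACA snoRNA of 128 bases at 24719676 to 24719803 on the same strand. Capitals in the Snhg9 transcript below mark a TATAAA at base 35 and an AATAAA, the letters of the usual polyadenylation signal, at base 164, with 14 bases after it. Capitals in Snora78 mark the ACA that stands 3 bases before the end of the RNA and gives the class its name. Both sequences are the GENCODE M21 transcripts.
Snhg9 transcript: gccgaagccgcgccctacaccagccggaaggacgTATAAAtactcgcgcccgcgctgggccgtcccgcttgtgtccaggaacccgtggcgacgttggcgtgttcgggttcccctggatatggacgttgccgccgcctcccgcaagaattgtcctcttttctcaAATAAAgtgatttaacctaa
Snora78: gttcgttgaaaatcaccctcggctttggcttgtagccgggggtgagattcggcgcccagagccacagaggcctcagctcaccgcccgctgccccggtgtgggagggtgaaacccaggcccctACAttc

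The regions around the annotated starts of the hosts shared features that the choice of members did not use. Start windows of 300 bases in the RefSeq promoter table (GRCm38.p6) run from 250 bases before to 50 bases after the start, and 8 of the 10 hosts had one, Gas5 with 2. A C followed by at least 4 pyrimidines, searched within 10 bases of the start on the sense strand, was found in 7 of the 9 windows, against 30.7% of all 32851 promoter windows. The windows without it were that of Snhg1 and the start of Gas5 farther upstream. This is a loose form of the terminal oligopyrimidine start known for Gas5 and for ribosomal protein genes, and it need not lie at the first base of the RNA. In Snhg9 the run began 9 bases before the annotated start and ended before it. It began at base 3 of the transcript in Snhg3, at base 10 in Snhg5 and at base 1 in Snhg8. In Snhg7 and Gas5 it began 1 base before the start, and in Snhg12 it began 2 bases before. TATAAA, searched on the sense strand over the whole window after the sequences had been seen, was in 5 of the 9 windows and in 8.32% of all windows. On either strand it was in 6 of the 9 windows, against 13.6% of all windows. All 5 windows with TATAAA on the sense strand also had the pyrimidine run. A match describes letters and is neither a site nor a cause. The windows printed below hold 90 bases, of which the leading 40 lie before the annotated start. They were chosen to show, on the sense strand, both features together, the pyrimidine run alone and neither. Capitals mark the TATAAA and the pyrimidine run, and the 2 overlap in none of them.
Snhg7 (chr2:26640195-26640284, minus strand): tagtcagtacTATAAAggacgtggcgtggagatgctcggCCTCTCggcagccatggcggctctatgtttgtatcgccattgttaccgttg
Snhg8 (chr3:123508287-123508376, minus strand): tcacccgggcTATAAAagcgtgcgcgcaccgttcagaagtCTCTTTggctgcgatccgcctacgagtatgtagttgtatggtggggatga
Snhg5 (chr9:88522848-88522937, minus strand): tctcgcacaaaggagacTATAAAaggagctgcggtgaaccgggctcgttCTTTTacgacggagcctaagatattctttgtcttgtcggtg
Snhg9 (chr17:24719916-24720005, minus strand): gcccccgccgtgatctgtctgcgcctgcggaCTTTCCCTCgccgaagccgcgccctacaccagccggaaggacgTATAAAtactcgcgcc
Snhg12 (chr4:132308638-132308727, plus strand): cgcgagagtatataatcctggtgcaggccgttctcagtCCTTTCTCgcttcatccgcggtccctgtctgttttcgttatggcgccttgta
Gas5, the start farther downstream (chr1:161035126-161035215, plus strand): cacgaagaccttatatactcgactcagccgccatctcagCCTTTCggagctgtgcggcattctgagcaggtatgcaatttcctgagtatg
Snhg1 (chr19:8723447-8723536, plus strand): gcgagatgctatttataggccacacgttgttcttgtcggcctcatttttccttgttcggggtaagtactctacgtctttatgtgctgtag
In Snhg7 and Snhg8 the TATAAA began 30 bases before the start and in Snhg5 it began 23 bases before. In Snhg9 it began at base 35 of the transcript, inside exon 1. In Snhg3, the remaining host with both features, whose window is not printed, it also lay after the start, beginning at base 23. On the sense strand Snhg12 and this Gas5 window had the pyrimidine run without a TATAAA, and Snhg1 had neither. The Snhg1 window reads TATAAA on the opposite strand.

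Snhg9 was the host with the clearly higher value in Per2def. It stood at 18.9 FPKM in Per2def, against 6.40 FPKM in Per2wt, a 2.95-fold difference in FPKM and 1.43 on the log2(FPKM + 1) scale. The difference was 1.38 above the median of the other 9 hosts, which was 0.05. No other host came near it: the differences of the other 9 ran from -0.09 to 0.34. In the order of levels Snhg9 was eighth of the 10 hosts in Per2def and ninth in Per2wt, so it and Snhg4 changed places. In bulk RNA a change in the share of cells that make an RNA and a change in RNA per cell cannot be told apart.

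**Figure D1:**
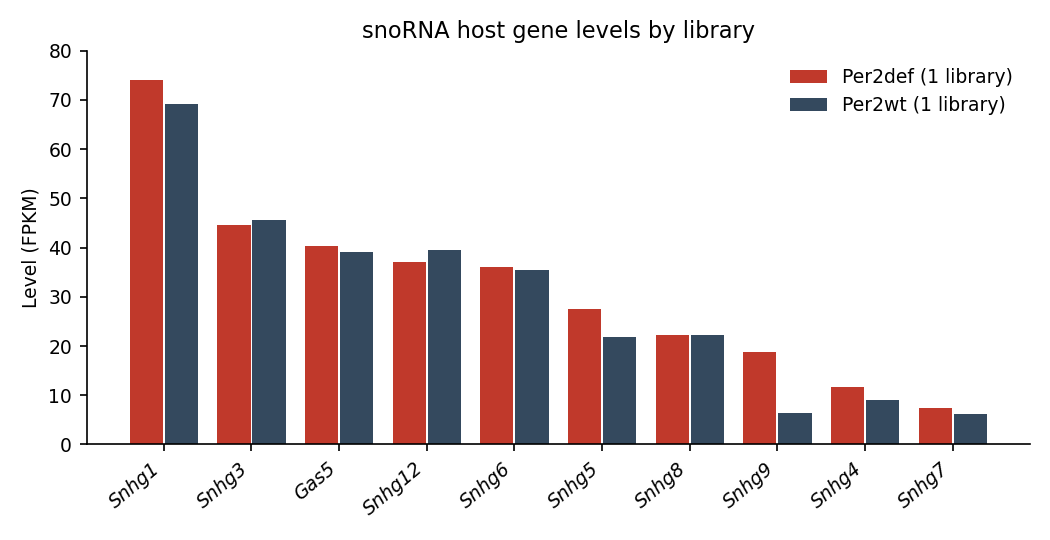
FPKM (linear axis from 0) of the 10 snoRNA host genes in the Per2def library and the Per2wt library, ordered by level in Per2def. Each bar is 1 library, so there are no error bars. Snhg9, at 18.9 FPKM in Per2def and 6.40 FPKM in Per2wt, is the pair whose bars differ most in proportion.

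Snhg1 was the most abundant host per length in both libraries, at 74.1 FPKM in Per2def and 69.2 FPKM in Per2wt (log2 difference 0.10). It is the host of Snord22 and of 7 other annotated snoRNAs, none of which overlaps an exon of the matched transcript, and that transcript joins 10 exons. The gene (ENSMUSG00000108414.1) lies on the plus strand of chromosome 19 at 8723487 to 8726326, and its matched transcript is 605 bases long. Snhg3 stood at 44.7 FPKM in Per2def and 45.6 FPKM in Per2wt (-0.03). It carries Snora73a and Snora73b, the H/ACA snoRNAs known for their role in cutting the ribosomal RNA precursor, in a gene (ENSMUSG00000085241.7) at 132351933 to 132353686 on the minus strand of chromosome 4. Its spliced transcript has 3 exons and 437 bases.

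Gas5 stood at 40.3 FPKM in Per2def and 39.0 FPKM in Per2wt (log2 difference 0.05). The gene (ENSMUSG00000053332.13) lies on the plus strand of chromosome 1 at 161034601 to 161038539, and its 25 annotated transcripts run from 346 to 2556 bases. Gas5 has 9 annotated guests, more than any other host described here. Snhg12 stood at 37.1 FPKM in Per2def and 39.5 FPKM in Per2wt (-0.09), the lowest difference of the 10. It lies on the plus strand of chromosome 4 at 132308678 to 132311024 (ENSMUSG00000086290.9) and has 4 guests. Snhg6 stood at 36.1 FPKM in Per2def and 35.4 FPKM in Per2wt (0.03), with 1 guest, Snord87, in a gene on the minus strand of chromosome 1 at 9942025 to 9944118 (ENSMUSG00000098234.7). Snhg3, Gas5, Snhg12 and Snhg6 thus formed a group of like levels in both libraries, and with 1 library each no spread is available to say whether neighbours in the order differ. The small positive differences of Gas5 and Snhg6 became -0.01 and -0.03 when the libraries were scaled to a common median of ratios or upper quartile.

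Snhg8 stood at 22.2 FPKM in both libraries. It is the host of Snora24 and lies on the minus strand of chromosome 3 at 123507552 to 123508336 (ENSMUSG00000104960.1), and its matched transcript of 776 bases is a single exon. Snora24 was the only 1 of 21 guests checked that overlapped an exon of the matched transcript of its host. Snhg5, the host of Snord50a and Snord50b, stood at 27.6 FPKM in Per2def and 21.8 FPKM in Per2wt (log2 difference 0.33). It lies on the minus strand of chromosome 9 at 88521052 to 88522897 (ENSMUSG00000097195.9). Snhg4, the host of Snora74a, stood at 11.7 FPKM in Per2def and 9.06 FPKM in Per2wt (0.34), in a gene on the plus strand of chromosome 18 at 35553410 to 35558316 that GENCODE lists under another name (ENSMUSG00000117869.1). Snhg7, the host of Snora17 and Snora43, was the least abundant host in both libraries, at 7.43 FPKM in Per2def and 6.15 FPKM in Per2wt (0.24). RefSeq places it on the minus strand of chromosome 2 at 26637176 to 26640244. Snhg4, Snhg5 and Snhg7 were the next highest differences after Snhg9, and each was under 1.5-fold.

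Of the 10 hosts, 7 were higher in Per2def and 3 (Snhg3, Snhg8 and Snhg12) were lower, with Snhg8 lower by less than the third digit of its level. The median difference of the 10 was 0.07, and it was 0.05 without Snhg9. Over all 11121 measured symbols the median was also 0.05, with 62.0% of them higher in Per2def, so the middle of the 9 other hosts was that of all genes. The summed level of the 9 hosts without Snhg9 was 301.2 FPKM in Per2def and 287.9 FPKM in Per2wt, a ratio of 1.05. With Snhg9 the sums were 320.1 FPKM in Per2def and 294.3 FPKM in Per2wt, a ratio of 1.09. On the FPKM + 1 scale 1 of the 10 hosts, Snhg9, was at least 1.5-fold higher in Per2def, against 2.61% of all measured symbols. None of the 10 was at least 1.5-fold lower, against 1.7% of all measured symbols. Snhg9 was also past 2-fold on this scale, as were 139 of the 11121 measured symbols in that direction. Since Snhg9 was picked with its values known, these counts are read as a description and nothing is drawn from them.

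**Figure D2:**
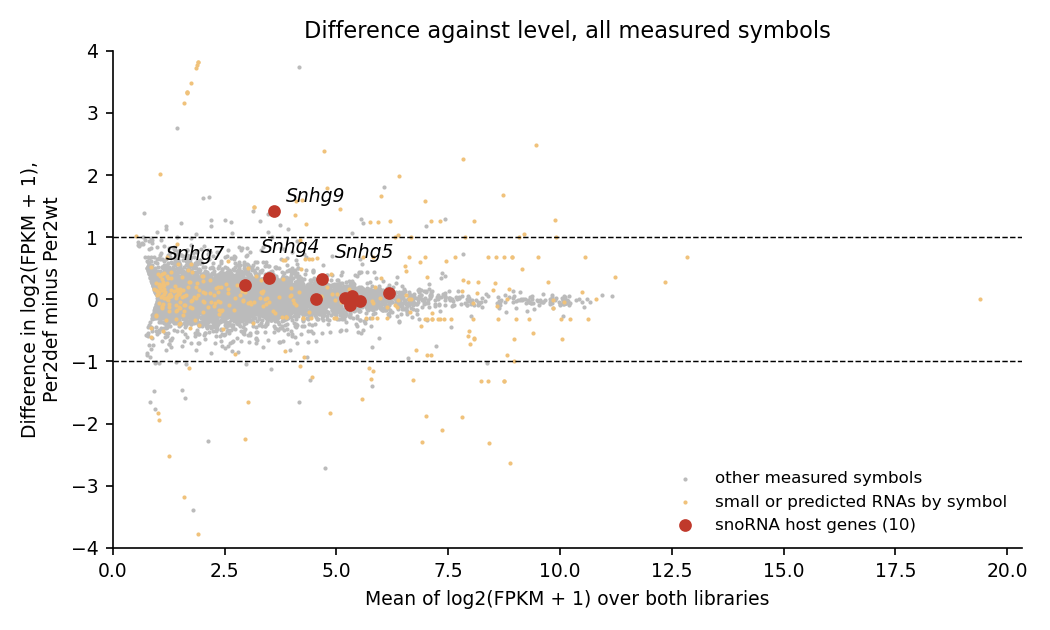
Difference in log2(FPKM + 1), Per2def minus Per2wt, against the mean log2(FPKM + 1) of both libraries for all 11121 measured symbols; each point is 1 symbol and dashed lines mark 2-fold. The 10 hosts are red, Snhg9 lies above the upper line, and 138 symbols lie beyond the axis limit of 4 in either direction.

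Among all measured symbols Snhg9 had the 102nd highest difference. Most of the symbols above it carried names of small or predicted RNAs, and among the 10620 symbols without such names it was the seventh highest. At least 2-fold higher values were seen in 0.273% of those 10620 symbols. Transcript length separated these groups further. Of 292 measured symbols whose longest annotated transcript is up to 300 bases, 37% were at least 2-fold higher in Per2def and a further 30.1% were lower by the same margin. Of 10314 measured symbols with a longer transcript, 0.242% were at least 2-fold higher. Snhg9, at 183 bases, fell among the short ones, and the 8 other hosts with annotated transcripts fell among the long ones. Of the 292 short symbols 138 were listed at 0 in 1 of the libraries, all of them with transcripts up to 150 bases. Over 150 and up to 300 bases there were 13 symbols, none of them listed at 0. On the FPKM + 1 scale 2 of them were higher and 3 lower in Per2def by at least 2-fold, and Snhg9 was 1 of those 2. By plain FPKM ratio Scarna13 was also past 2-fold higher and Snora74a past 2-fold lower.

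**Figure D3:**
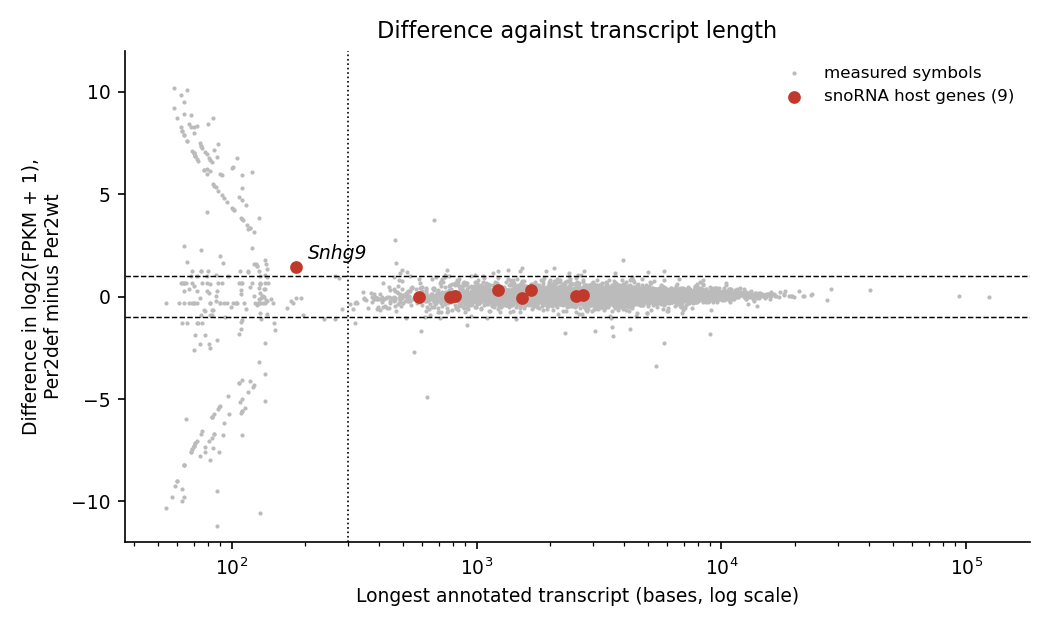
Difference in log2(FPKM + 1), Per2def minus Per2wt, against the length of the longest annotated transcript in bases (log axis); each grey point is 1 measured symbol, dashed lines mark 2-fold and the dotted line marks 300 bases. Snhg9, at 183 bases, lies left of the dotted line, where 37% of symbols are past the upper dashed line, and the 8 other hosts with annotated transcripts lie right of it.

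Other RNAs near the length of Snhg9 were few. AF357399 and Bc1, the only other measured symbols up to 300 bases without a small or predicted name, both had lower values in Per2def. AF357399, with a transcript of 125 bases, stood at 102.2 FPKM in Per2def and 126.9 FPKM in Per2wt (-0.31). Bc1, a small cytoplasmic RNA known from neurons, of 168 bases, stood at 5.20 FPKM in Per2def and 8.08 FPKM in Per2wt (-0.55). Of the 12 other symbols over 150 and up to 300 bases, whatever their names, Gm21586 stood at 1.02 FPKM in Per2def and 0.000497 FPKM in Per2wt (1.01), and Scarna13 at 2.69 FPKM in Per2def and 0.980 FPKM in Per2wt (0.90). The other 10, Bc1 among them, were lower in Per2def, with Rnu12 the lowest at 3.61 FPKM in Per2def and 13.5 FPKM in Per2wt (-1.65). RNAs of this length thus had values on both sides, and these examples were chosen after their values were seen.

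Values of very short genes also moved in steps. Among 3232 symbols above 0 and under 0.5 FPKM in both libraries, the FPKM ratio of Per2def to Per2wt seen most often was 0.805, which is what an equal number of fragments in each library would give if Per2def had been sequenced 1.24 times as deeply. Set relative to this ratio, the Per2def to Per2wt ratio of Snhg9 was 3.67, and it lay within 0.1% of 11 to 3. For Snhg7 the same ratio was 1.5, within 0.1% of 3 to 2, and for Snhg5 it was 1.57, within 0.1% of 11 to 7. The other 7 hosts met no pair of whole numbers up to 15. Such a pair was met by 80.5% of the 154 symbols up to 300 bases that were above 0 in both libraries. Over 300 and up to 2000 bases it was met by 13.3% of 2317 symbols, and over 2000 bases by 11.7% of 7995. Snhg5, with a longest transcript of 1221 bases, falls in the middle class, and Snhg7 has no annotated transcript length. Their pairs are therefore not read as steps of very short genes. The ratio does not give the fragments themselves, since 11 to 3 and any multiple of it look alike. The tables hold no fragment counts, so no counting interval was set on the Snhg9 difference.

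The guest snoRNAs showed a different set of values from their hosts. Within the 10 hosts 32 snoRNA genes are annotated on the same strand, 18 of them assigned to box C/D and 10 to box H/ACA, with 4 left unassigned. The class follows the gene name where that gives one and otherwise the letters of box C and box D near the ends. The tables have a row for 12 of the 32, and of these 3 were higher in Per2def, 7 were lower, Snora24 was near 0 FPKM in both libraries, and Snord99 was listed at 0 in both. Snord47 of Gas5, a box C/D snoRNA on the plus strand of chromosome 1 at 161038082 to 161038158, is shown as an example of its class. Capitals mark the TGATGA of box C at base 12 and the CTGA of box D at base 70.
Snord47: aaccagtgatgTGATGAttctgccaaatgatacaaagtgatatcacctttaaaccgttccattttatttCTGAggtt
Snord47 was lower at 847 FPKM in Per2def, against 1315 FPKM in Per2wt (-0.63), while its host Gas5 differed by 0.05.

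Snora78, inside Snhg9, did not share the direction of its host. It stood at 12.1 FPKM in Per2def and 15.1 FPKM in Per2wt (-0.29), and its FPKM ratio of 0.805 was the most common ratio among low symbols. On the FPKM + 1 scale the guest at least 2-fold higher in Per2def was Snord22 of Snhg1. Known in Xenopus for its role in processing the ribosomal RNA precursor, it stood at 216 FPKM in Per2def and 71.4 FPKM in Per2wt (1.58). The guest at least 2-fold lower on that scale was Snora61 of Snhg12, listed at 0 in Per2def and at 1536 FPKM in Per2wt. Other guests of Snhg12 differed less: Snora16a stood at 52.9 FPKM in Per2def and 65.7 FPKM in Per2wt (-0.31). Snora44 stood at 78.0 FPKM in Per2def and 84.8 FPKM in Per2wt (-0.12). The 3 guests of 1 host thus ranged from a slight difference to a value listed at 0.

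The guests of Snhg7 differed from each other as well. Snora43 stood at 24.3 FPKM in Per2def and 12.1 FPKM in Per2wt (0.95), a plain FPKM ratio of 2.01. Snora17, in the same host, stood at 35.8 FPKM in Per2def and 37.0 FPKM in Per2wt (-0.05). Snord87 of Snhg6 stood at 268 FPKM in Per2def and 222 FPKM in Per2wt (0.27). Snora74a of Snhg4 stood at 3.89 FPKM in Per2def and 8.05 FPKM in Per2wt (-0.89), a plain FPKM ratio of 0.483. Snora43 and Snora74a thus passed 2-fold by plain ratio but not on the FPKM + 1 scale. Of the 10 guests above 0 in both libraries, 9 met a pair of whole numbers up to 15 in the sense used for Snhg9, among them Snord22 at 15 to 4, Snora43 at 5 to 2, Snord47 at 4 to 5 and Snora74a at 3 to 5. Snora78 and Snora16a were both at 1 to 1. Whether such rows hold mature snoRNA or pieces of unspliced host RNA cannot be told from these tables.

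**Figure D4:**
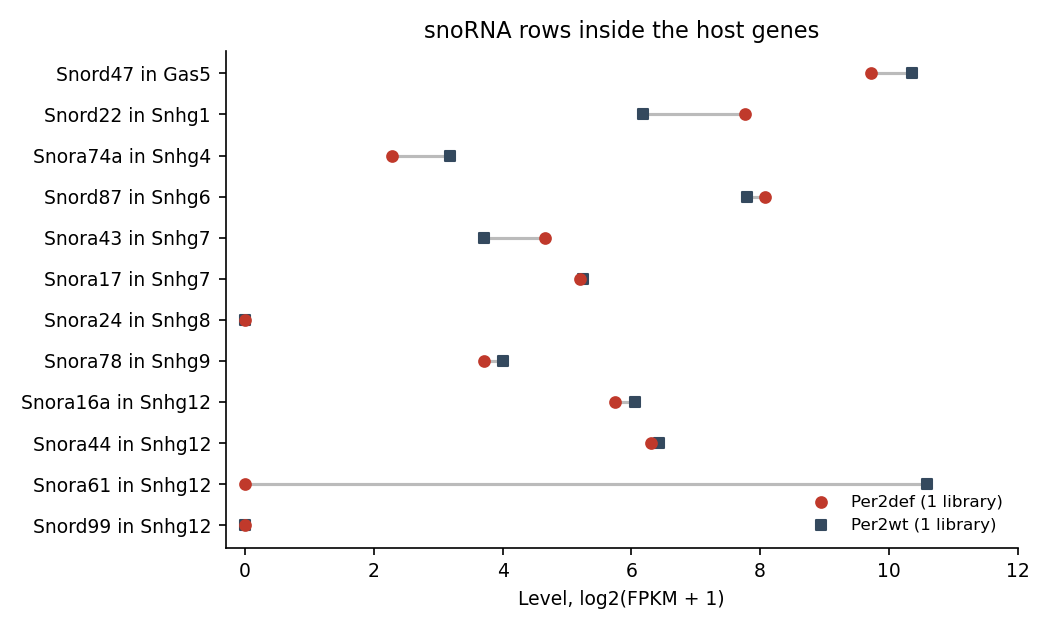
Levels in log2(FPKM + 1) of the 12 snoRNAs inside the hosts that have a row in the tables; red circles are the Per2def library, blue squares the Per2wt library, and the grey line joins them. Snora61 is listed at 0 in Per2def, and Snord22 is the guest at least 2-fold higher in Per2def on the FPKM + 1 scale. Snora78, inside Snhg9, is slightly lower in Per2def.

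Genes beside the hosts were compared to see whether a host moved with its neighbourhood. Snhg9 lies inside the span of Rps2, a ribosomal protein gene on the opposite strand, because 1 of the 8 annotated Rps2 transcripts reaches it, and 14 exonic bases are shared. Rps2 stood at 1192 FPKM in Per2def and 1149 FPKM in Per2wt (0.05). The strand setting of the authors' quantification is not stated, so reads over shared bases cannot be told apart. On the other sides of Snhg9, Ndufb10, a subunit of respiratory complex I, stood at 59.9 FPKM in Per2def and 66.6 FPKM in Per2wt (-0.15), and Rnf151 was below 1 FPKM in both. None of the neighbours of Snhg9 had a difference like its own.

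Over all 10 hosts there were 17 pairs of a host and a neighbour measured at 1 FPKM or more, 10 of the same sign and 7 of opposite sign. Trnau1ap stands in the pairs of both Snhg3 and Snhg12. Since 62.0% of all measured symbols and 7 of the 10 hosts were higher in Per2def, many pairs share a sign wherever they lie. Nothing is drawn from these counts. Slc3a2, which encodes the heavy chain of amino acid transporters and starts 118 bases from Snhg1 on the opposite strand, stood at 20.3 FPKM in Per2def and 18.8 FPKM in Per2wt (0.10, as for Snhg1), while Wdr74 on the other side was at -0.09. Rcc1, the exchange factor of Ran, overlaps 1673 of the 1754 bases of Snhg3 on the same strand. Rcc1 stood at 17.7 FPKM in Per2def and 18.5 FPKM in Per2wt (-0.06), where Snhg3 was at -0.03. How reads over the shared span were divided between Rcc1 and Snhg3 is not stated, so these values may not be independent. Phactr4, on the other side of Snhg3, was at 0.27. Matr3, an RNA-binding protein of the nuclear matrix, lies 3822 bases downstream of Snhg4 and stood at 27.9 FPKM in Per2def and 23.9 FPKM in Per2wt (0.22), where Snhg4 was at 0.34. Trnau1ap, a partner of selenocysteine tRNA that lies 739 bases from Snhg12, stood at 13.1 FPKM in Per2def and 11.2 FPKM in Per2wt (0.20), where Snhg12 was at -0.09. Fam69b, 679 bases from Snhg7, stood at 10.8 FPKM in Per2def and 11.4 FPKM in Per2wt (-0.07), where Snhg7 was at 0.24. Zbtb37 and Mcmdc2, which overlap the start of Gas5 and the end of Snhg6 on the opposite strand, differed by 0.02 and 0.09. Prss12, beside Snhg8, was below 1 FPKM in both libraries.

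A list of 17 other noncoding snoRNA hosts gave 12 with a row, 6 of them under an older name, and 10 measured. Of these 10, 7 were higher and 3 lower in Per2def, none past 1.5-fold, with a median of 0.04 beside 0.05 for all measured symbols. Snhg15 was the highest, at 20.9 FPKM in Per2def and 14.7 FPKM in Per2wt (0.48). The lowest was 2410006H16Rik, at 88.0 FPKM in Per2def and 100.6 FPKM in Per2wt (-0.19). Between them lay Epb41l4aos at 29.8 FPKM in Per2def and 25.8 FPKM in Per2wt (0.20), and Snhg16 at 11.7 FPKM in Per2def and 12.9 FPKM in Per2wt (-0.13). No member of this list had a difference as wide as that of Snhg9.

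Protein-coding genes that hold an annotated snoRNA on the same strand numbered 276, of which 264 had a row and 199 were measured. Of these 125 were higher and 74 lower in Per2def, with a median of 0.05. On the FPKM + 1 scale none was past 1.5-fold higher and 2 were past 1.5-fold lower. These were Mfsd13a, listed under the older symbol Tmem180, at 4.17 FPKM in Per2def and 8.31 FPKM in Per2wt (-0.85), and Samd12, at 0.960 FPKM in Per2def and 2.09 FPKM in Per2wt (-0.66). Rnf180, at 1.18 FPKM in Per2def and 0.705 FPKM in Per2wt (0.36), was past 1.5-fold higher by plain ratio only. Samd12 and Rnf180 were named after their values were seen. The highest difference was that of Ap1b1, a subunit of the clathrin adaptor AP-1, at 17.6 FPKM in Per2def and 12.5 FPKM in Per2wt (0.46). N4bp2 stood at 5.87 FPKM in Per2def and 4.14 FPKM in Per2wt (0.42).

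Genes for partners of the host RNAs were compared next, and none was past 1.5-fold in either direction. Of 20 genes for snoRNA particle proteins and their assembly, 10 were higher and 10 lower in Per2def, none past 1.5-fold, with a median of -0.01. Nop58, a core box C/D protein, stood at 56.1 FPKM in Per2def and 49.9 FPKM in Per2wt (0.17). Ruvbl2, an ATPase of the assembly machinery, stood at 41.1 FPKM in Per2def and 36.3 FPKM in Per2wt (0.17). Lower values were seen for Naf1, which assembles H/ACA particles, at 5.29 FPKM in Per2def and 6.09 FPKM in Per2wt (-0.17), and for the box C/D assembly factor Znhit3 at 4.55 FPKM in Per2def and 5.65 FPKM in Per2wt (-0.26). Of 19 factors of nonsense-mediated decay, the pathway known to destroy several host RNAs, 12 were higher and 7 lower, none past 1.5-fold, with a median of 0.03. Upf3a stood at 11.1 FPKM in Per2def and 12.7 FPKM in Per2wt (-0.18), and its paralog Upf3b at 11.6 FPKM in Per2def and 10.1 FPKM in Per2wt (0.19). The widest difference of this list was that of Xrn1, the exonuclease that degrades decapped RNA, at 3.997 FPKM in Per2def and 2.74 FPKM in Per2wt (0.42). Neither list had a member whose difference neared that of Snhg9.

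Cytosolic ribosomal protein genes, which share the oligopyrimidine start with Gas5, tended to lower values in Per2def. Of 80 measured, 58 were lower and 22 higher, with a median of -0.03 beside 0.05 for all measured symbols. Rpl9 stood at 651 FPKM in Per2def and 721 FPKM in Per2wt (-0.15), and Rpl34 at 192 FPKM in Per2def and 175 FPKM in Per2wt (0.13). The 1 gene past 1.5-fold was Rps27, at 64.1 FPKM in Per2def and 3.89 FPKM in Per2wt (3.73). Near-identical copies of Rps27 are known, and whether reads shared among them have a part in this value was not tested.

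**Figure D5:**
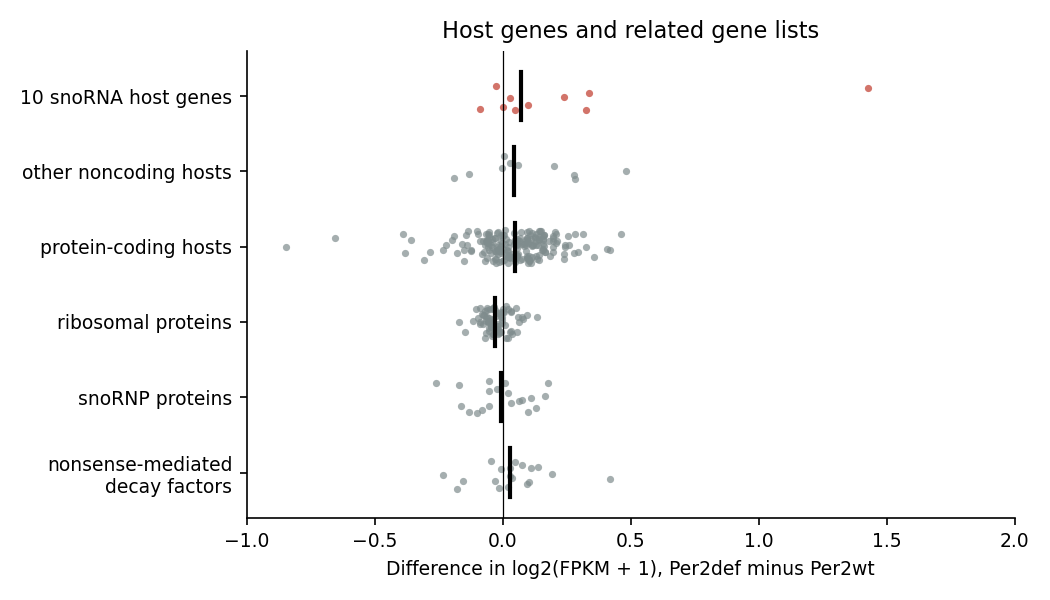
Difference in log2(FPKM + 1), Per2def minus Per2wt, of the measured genes of 6 lists; each point is 1 gene, the thick bar is the list median and the spread of points within a row has no meaning. Snhg9 is the red point at 1.43, the other hosts lie between -0.09 and 0.34, and Rps27 among the ribosomal proteins lies beyond the axis at 3.73.

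The symbols closest to Snhg9, by distance in the plane of log2(FPKM + 1) of the 2 libraries and leaving out small and predicted RNAs, were Chil3, Akr1b3, G530011O06Rik, Ly6c2 and Ltf. Chil3, a chitinase-like protein of myeloid cells, stood at 16.95 FPKM in Per2def and 5.92 FPKM in Per2wt. Ltf, the lactoferrin of neutrophil granules, stood at 14.0 FPKM in Per2def and 5.28 FPKM in Per2wt. Ly6c2, a surface protein of myeloid cells, stood at 15.0 FPKM in Per2def and 6.60 FPKM in Per2wt. Akr1b3, an aldose reductase, stood at 19.1 FPKM in Per2def and 7.83 FPKM in Per2wt. The likeness is of 2 values each and says nothing of shared control.

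Markers of another cell type moved in the same direction as Snhg9. All 9 neutrophil lineage markers were higher in Per2def, 7 of them past 1.5-fold, with a median of 1.18 and a summed level of 977 FPKM in Per2def against 511 FPKM in Per2wt, and none was at 0. Camp stood at 72.0 FPKM in Per2def and 28.9 FPKM in Per2wt (1.29). The differences of these markers ran from 0.34 to 1.29, and those of the other 9 hosts from -0.09 to 0.34. The part of neutrophil lineage cells in the Snhg9 result was not tested. Of 11 stem and progenitor markers, 8 were measured, 4 of them higher and 4 lower. Kit stood at 43.6 FPKM in Per2def and 42.7 FPKM in Per2wt, while Slamf1, Fgd5 and Hoxb5 were under 1 FPKM in both. Flt3 stood at 51.4 FPKM in Per2def and 48.8 FPKM in Per2wt (0.07), and Ptprc at 16.9 FPKM in Per2def and 14.7 FPKM in Per2wt (0.19). Cd34 stood at 83.9 FPKM in Per2def and 90.5 FPKM in Per2wt (-0.11), and Gata2 at 18.6 FPKM in Per2def and 22.5 FPKM in Per2wt (-0.27). Erythroid markers summed to 693 FPKM in Per2def and 717 FPKM in Per2wt but split, with 5 higher and 4 lower. The 4 lower were the globins, all past 1.5-fold, among them Hbb-bs at 0.00297 FPKM in Per2def and 29.2 FPKM in Per2wt (-4.91). The 1 past 1.5-fold higher on the FPKM + 1 scale was Car1, a carbonic anhydrase. It stood at 293.7 FPKM in Per2def and 177.3 FPKM in Per2wt (0.72). Epor, at 11.9 FPKM in Per2def and 7.82 FPKM in Per2wt (0.54), was past 1.5-fold higher by plain ratio only. Megakaryocyte markers summed to 32.2 FPKM in Per2def and 41.1 FPKM in Per2wt but also split. Of the 4 measured, 2 were higher and 2 lower. The 1 past 1.5-fold was Thbs1, at 0.996 FPKM in Per2def and 8.70 FPKM in Per2wt (-2.28). Itga2b stood at 12.8 FPKM in Per2def and 12.7 FPKM in Per2wt (0.01), and Pf4 at 13.9 FPKM in Per2def and 15.8 FPKM in Per2wt (-0.17). The summed level of B cell markers was 6.19 FPKM in Per2def and 6.59 FPKM in Per2wt, and that of T cell markers 4.02 FPKM in Per2def and 1.75 FPKM in Per2wt. Only 1 of the 5 B cell markers, Cd79b, and 2 of the 5 T cell markers were measured. The T cell sums thus rest on values near or under 1 FPKM.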

How the data were processed

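RNA-seq of 2 libraries, 1 labelled Per2def and 1 labelled Per2wt, was analysed from 1 table each. The authors deposited FPKM per gene from Cufflinks, per the file headers. The submitters' processing notes also name CASAVA 1.8, TopHat, Bowtie2 and the builds GRCm38 and mm10. Per the labels' protocols, polyadenylated RNA was selected and strand was marked. Other versions, the annotation, the strand setting and the read totals are not given in these sources, so depth is unknown and no interval or floor was set. FPKM of transcripts shorter than a sequenced fragment rest on an estimated effective length and vary most.

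Of 24487 rows per table, 9 without an estimate and 27 with a symbol turned into a date were left out, and rows sharing a symbol were summed, leaving 23961 symbols. Each of the 10 members had 1 row. Groups came from the genotype label. Differences used a pseudocount of 1 FPKM, and counts cover the symbols that reach 1 FPKM in either library. No test was made. The members, the gene lists and the rule for named genes were chosen with earlier results of these data known. The rule takes all members, Per2, guests with a row, flanking protein-coding genes, up to 4 genes of widest difference at 5 FPKM or more from each list, and the 5 symbols nearest to Snhg9. AF357399, Bc1, Gm21586, Scarna13, Rnu12, Samd12, Rnf180, Xrn1, Car1, Epor, Kit, Slamf1, Fgd5 and Hoxb5 fall outside it. These genes, the length classes, the TATAAA search and the whole-number ratios were chosen after the values or sequences were seen. Coordinates, transcripts and guests came from GENCODE M21 and RefSeq GRCm38.p6, and a guest is an annotated snoRNA under 300 bases inside its host on the same strand. Start windows came from the RefSeq table, with no entry for Snhg4 and Snhg6. Python 3.11.15, numpy 2.4.6, pandas 2.3.3 and matplotlib 3.10.9 were used, and the fold calculation was tested on simulated data.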

Additional observations from a re-analysis of the deposited data

How the results depend on the processing

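With 1 library per genotype, replicate error is unknown and no result has a test. No paired analysis was possible because each genotype has 1 library and the labels carry no replicate numbers. Scaling to a median of ratios, an upper quartile or a fixed total, pseudocounts of 0.1 and 0.5 FPKM and the highest row per symbol moved none of the 60 member differences tried by more than 0.16, the spread of differences over symbols used as the tolerance. Many of these outcomes were fixed beforehand. Each member has 1 row, so taking the highest row could not change it. Each scaling shifts all genes by a common amount, at most 0.06 in size, which is below the tolerance. Only the pseudocounts could have moved a member past it. Snhg9 ran from 1.37 to 1.55. Gas5 ran from -0.01 to 0.05 and Snhg6 from -0.03 to 0.03, and their signs changed under median-of-ratios and upper-quartile scaling, which shifted all genes by -0.05 and -0.06. The medians of other noncoding hosts and of protein-coding hosts became -0.01 under both scalings, and that of decay factors -0.02. By the mean in place of the median the 10 hosts were at 0.24, and 3 hosts passed the lower of the other fold thresholds tried. Symbols at least 1.5-fold higher numbered 192 with a floor of 5 FPKM, 524 with a pseudocount of 0.1 and 153 without small and predicted RNAs, against 290. Those 1.5-fold lower numbered 83 without small and predicted RNAs, against 189. Symbols at least 2-fold higher numbered 217 with a pseudocount of 0.1, 29 without small and predicted RNAs and 25 over 300 bases, against 139, and those 2-fold lower 20 and 19 under the last 2 settings, against 111. The length settings were chosen after seeing the data. A higher floor or left-out RNAs also test fewer symbols. The cause of the other changes was not tested.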
